A study of Homo sapiens with 8 samples.

Results

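Intermediate filament genes were described across HEK293T cells carrying a Cas activator. The 10 members were chosen by symbol: KRT8, KRT18, KRT19 and KRT10 (keratins), VIM (vimentin), NES (nestin), NEFL, NEFM and NEFH (the light, medium and heavy neurofilament chains) and INA (alpha-internexin). All 10 were found among the 60652 gene rows of each file, and 9 of the 10 passed the filter on low counts, NEFH being left out. HEK293T is a human embryonic kidney line that was transformed with adenovirus DNA and carries the SV40 large T antigen. Every library came from a HEK293T line with a TRE3G-GFP reporter that was transfected with activator and guide plasmids and sorted on mCherry and BFP 2 days later. The groups, of 2 libraries each, were dCasMINI-VPR with the sgTet guide, dCasMINI-VPR with sgNT, dCas12a-VPR with crTet and dCas12a-VPR with crNT. VPR joins the VP64, p65 and Rta activation domains to a Cas protein that does not cut, the Tet guides are named for the tet operator sites of the reporter promoter, and NT marks a non-targeting guide. The cells are 1 line and the activators were expressed for days only, so the data show a short exposure in a transformed background. Whether the libraries of a group came from separate transfections is not stated, so p-values measure the spread between these libraries, which may be technical.

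Intermediate filaments are rope-like polymers of coiled-coil proteins that give cells mechanical strength. Keratins are obligate heteropolymers: a basic (type II) chain such as keratin 8 pairs with an acidic (type I) chain such as keratin 18, the pair typical of simple epithelia such as those of the kidney tubule. Vimentin is the filament of mesenchymal cells and of most cultured lines, nestin that of neural and muscle progenitors, and the neurofilament chains co-assemble with alpha-internexin in axons. Which filament genes a cell uses is a common mark of its lineage.

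Reads counted in genes ranged between 17474404 and 21081942 per library, and 3 reads corresponded to between 0.142 and 0.172 CPM (counts per 1000000 gene reads), a floor that covers counting error only. The share of reads left unmapped was 14.4% and 12.7% in crNT and lay between 8.32% and 9.62% elsewhere. Genes of the mitochondrial chromosome held 4.57% and 3.49% of gene reads in sgTet, 3.09% and 3.33% in sgNT, 3.90% and 4.03% in crTet, and 2.97% and 3.04% in crNT. The reporter row EGFP had 920 and 1094 CPM in sgTet against 3.23 and 4.42 in sgNT, and 804 and 708 CPM in crTet against 2.77 and 2.66 in crNT, so the libraries separate as their guide labels say.

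RefSeq start-site windows of GRCh38.p14, running 250 bases before to 50 after the start, were at hand for 5 members. They are shown for the 3 of these whose counts passed a test below. Capitals mark a GC box, GGGCGG or its complement CCGCCC, the letters bound by SP1-type factors. The windows are VIM at chr10:17227991-17228290 on the plus strand, INA at chr10:103276888-103277187 on the plus strand and KRT8 at chr12:52926420-52926719 on the minus strand.
VIM: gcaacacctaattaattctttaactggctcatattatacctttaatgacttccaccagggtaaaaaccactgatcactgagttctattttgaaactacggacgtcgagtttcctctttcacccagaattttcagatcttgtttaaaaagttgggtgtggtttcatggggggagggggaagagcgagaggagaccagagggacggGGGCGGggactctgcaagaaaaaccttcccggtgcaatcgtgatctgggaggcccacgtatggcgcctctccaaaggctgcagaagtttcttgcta
INA: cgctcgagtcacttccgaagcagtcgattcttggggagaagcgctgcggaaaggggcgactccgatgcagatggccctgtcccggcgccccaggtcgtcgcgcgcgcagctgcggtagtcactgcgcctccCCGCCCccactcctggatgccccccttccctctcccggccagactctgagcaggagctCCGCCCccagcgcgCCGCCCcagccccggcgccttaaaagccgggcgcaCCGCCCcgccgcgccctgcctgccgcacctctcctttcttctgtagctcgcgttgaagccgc
KRT8: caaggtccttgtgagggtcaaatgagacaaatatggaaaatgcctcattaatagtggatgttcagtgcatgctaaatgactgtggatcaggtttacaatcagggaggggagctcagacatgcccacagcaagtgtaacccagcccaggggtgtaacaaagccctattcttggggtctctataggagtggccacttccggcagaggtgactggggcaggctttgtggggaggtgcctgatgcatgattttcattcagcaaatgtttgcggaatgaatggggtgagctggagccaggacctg
The GC box occurred 1 time in the VIM window, 4 times in that of INA and 4 times in that of NES, and 0 times in those of KRT8 and KRT10, against 44.95% of 35116 RefSeq windows with at least 1 match on either strand. The AP-1 letters TGANTCA occurred in none of the 5 windows, where 7.71% of all windows held them, and the TATA letters TATAAA occurred in KRT10 alone of the 5 (11.5% of all windows). GC content was 71.3% in the INA window, 60.3% in NES, 50.7% in KRT8, 48.0% in VIM and 37.7% in KRT10. A match is a description of letters, not a site. The KRT8 window is that of a start inside the annotated gene, whose coding transcripts in GENCODE 29 start anywhere between 52903648 and 52949882. The VIM and KRT10 windows hold the most upstream coding start (17228259 and 40822595). Other coding transcripts of these genes start as far downstream as 17229278 and 40818983, outside the windows.

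Compared per length, vimentin was the most abundant member, and KRT19 and NEFH were nearly undetected. Levels per length are given as reads per kilobase of merged exons per 1000000 gene reads, as means of the 8 libraries ± SD, with positions on hg38 from GENCODE 29. VIM (chromosome 10, 17228259 to 17237593) stood at 31.0 ± 6.15, NEFL (chromosome 8, 24950955 to 24957110) at 22.7 ± 2.24 and KRT18 (chromosome 12, 52948871 to 52952901) at 19.8 ± 2.31. NEFL and KRT18 overlapped in their ranges, 18.9 to 26.2 and 16.6 to 23.3, so their order is not settled. INA (chromosome 10, 103277163 to 103290351) and KRT10 (chromosome 17, 40818117 to 40822595), a keratin of the differentiating epidermis, lay at 15.4 ± 1.99 and 14.7 ± 2.28, within each other's spread. KRT8 (chromosome 12, 52897187 to 52949954) stood at 11.1 ± 2.95, with a range (8.18 to 15.3) that overlapped those of INA and KRT10. NEFM (chromosome 8, 24913012 to 24919098) stood at 4.66 ± 0.985 and NES (chromosome 1, 156668763 to 156677397) at 2.68 ± 0.378. KRT19 (chromosome 17, 41523617 to 41528308), an acidic keratin of ducts, and NEFH (chromosome 22, 29480230 to 29491390) were at 0.0983 ± 0.107 and 0.149 ± 0.128, that is, close to the limit of detection. Light and medium neurofilament and internexin RNA were thus measured next to keratin 8 and 18 RNA in every library, while the heavy chain was nearly silent.

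**Figure D1:**
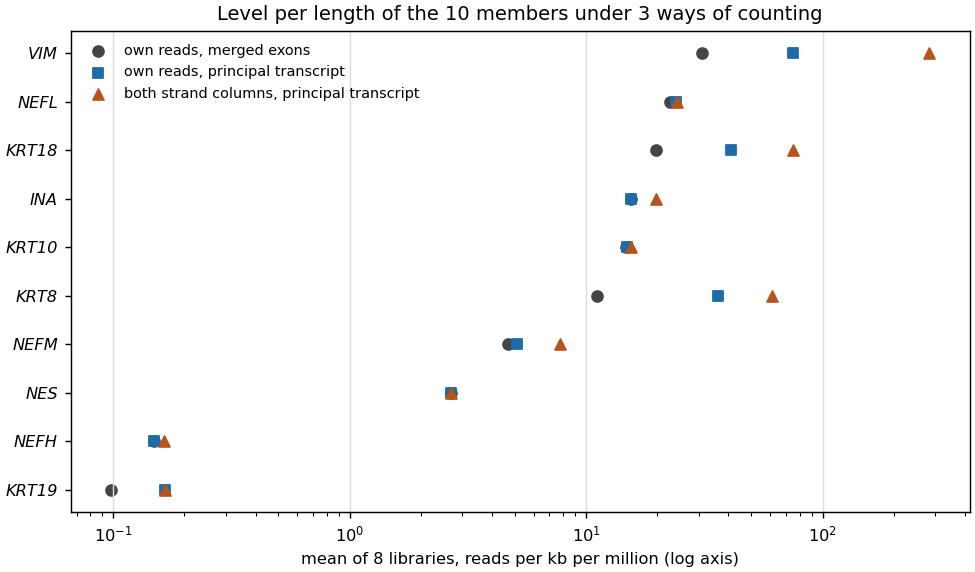
Level per length of the 10 members as the mean of 8 libraries, in reads per kilobase per 1000000 gene reads on a log axis, from own reads over merged exons (circles), own reads over the principal transcript (squares) and both strand columns over the principal transcript (triangles). VIM is highest in each of the 3, while KRT8 ranks 6 by circles and 3 by both squares and triangles.

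These levels depend on reads shared between overlapping genes and on the length used. The counts ignore strand and drop a read that lies in exons of 2 genes, whereas the 2 strand columns of the same files keep it, so the sum of the strand columns minus the unstranded count gives the shared reads. For VIM 73.4% of the reads were shared, between 68.3% and 76.0% in a library. Of the genes that GENCODE 29 places on the other strand of VIM, VIM-AS1 overlaps 641 exon bases and had 181 reads of its own over the 8 libraries, and ENSG00000234961 overlaps 619 exon bases and had 0. The shared reads of these partners, 30906 and 27692, matched the 69375 of VIM in 0 of 8 libraries, so part of the VIM sharing has no partner identified in GENCODE 29. For KRT8 41.0% of the reads were shared and for KRT18 45.5%, and in 7 of 8 libraries the shared number was the same for both genes, differing by 1 read in the other. The overlap spans 52949216 to 52949954 on chromosome 12 (525 exon bases), where a long KRT8 transcript runs back over the first part of KRT18, and the counts cannot say which gene those reads came from. For NEFM 34.4% were shared, all with the antisense row ENSG00000272163, and for INA 21.9%, with a partner not identified in GENCODE 29. KRT10, NEFL and NES lost 4.09%, 0.870% and 0%. The length used also sets the order. With own reads over the principal transcript alone, VIM stood at 74.8 ± 14.9, KRT18 at 40.8 ± 4.76, KRT8 at 36.1 ± 9.54 and NEFL at 24.1 ± 2.38. In these means of the 8 libraries both keratins already ranked above NEFL by that change of length. The order did not hold in each group. In sgTet KRT8 (26.5 ± 0.121) lay slightly below NEFL (27.1 ± 1.03), and in crNT KRT8 (46.4 ± 4.29) lay above KRT18 (38.5 ± 3.56). With the shared reads kept as well, VIM stood at 281 ± 29.3, KRT18 at 75.1 ± 6.85, KRT8 at 61.2 ± 11.9 and NEFL at 24.3 ± 2.32. The order of the means of the 8 libraries was the same. Here the reads shared by KRT8 and KRT18 count in full for both genes, which raises both keratins.

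**Figure D2:**
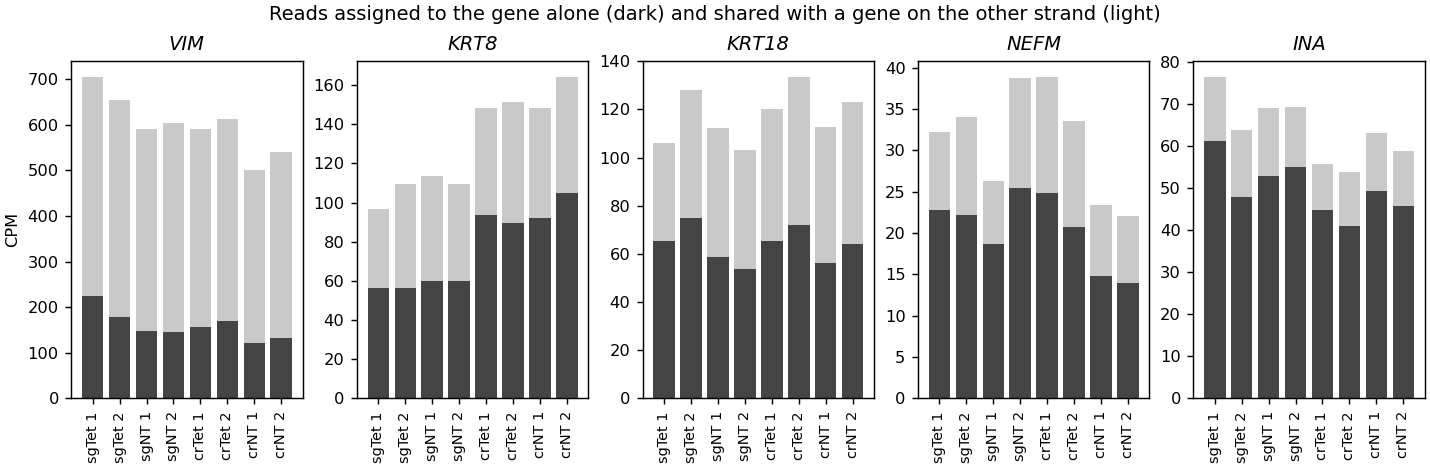
CPM in each library for 5 members, with reads assigned to the gene alone in dark grey and reads shared with a gene on the other strand in light grey, groups in the order sgTet, sgNT, crTet, crNT. Own reads are the smaller part of VIM in each library, between 24.01% and 31.7%.

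KRT8 and KRT18 also have processed pseudogenes, and between 3.54% and 5.64% of the reads of a library mapped to several places and entered no gene. The 51 KRT8 pseudogene rows held 1036 reads in all, 8.55% of the KRT8 reads, of which KRT8P12 held 616. The 67 KRT18 pseudogene rows held 251 reads, 2.49% of the KRT18 reads. KRT8P12 had 72 and 88 reads in sgTet, 87 and 73 in sgNT, 63 and 81 in crTet, and 84 and 68 in crNT. These reads of KRT8P12 overlap across all 4 groups. KRT8P45 had 7 and 6 reads in sgTet, 23 and 11 in sgNT, 33 and 11 in crTet, and 29 and 17 in crNT, lower with dCasMINI-VPR as KRT8 was but not called (-1.05 ± 0.47, unadjusted p = 0.0312, edgeR adjusted p = 0.161).

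Keratin 8 separated the activators. KRT8 had 56.3 and 56.6 CPM in sgTet, 59.8 and 60.1 in sgNT, 93.6 and 89.8 in crTet, and 92.1 and 105 in crNT. Every dCasMINI-VPR library lay below every dCas12a-VPR library, with either guide, and within an activator the guide groups were close. Over both guides KRT8 averaged 58.2 ± 2.04 CPM with dCasMINI-VPR and 95.1 ± 6.78 with dCas12a-VPR (SD, n = 4 each), 1.63-fold lower with dCasMINI-VPR (log2 fold change -0.71 ± 0.06, edgeR quasi-likelihood adjusted p = 3.84e-10). It was called under each alternative run, whichever library was left out. Neither guide gave a call for KRT8 (-0.09 ± 0.09, adjusted p = 0.747, in sgTet and -0.10 ± 0.09, adjusted p = 0.56, in crTet). With the shared reads kept, KRT8 stood at 103 ± 9.09 CPM in sgTet and 111 ± 2.71 in sgNT, against 150 ± 2.12 in crTet and 156 ± 11.1 in crNT, so the dCasMINI-VPR groups still lay below the dCas12a-VPR groups, by a smaller ratio. In these bulk libraries fewer cells that express a gene and less RNA per cell cannot be told apart. The labels give no date or batch, so the activator and any difference in how its cells were handled cannot be told apart either.

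KRT18, the partner chain of KRT8, was not called between the activators. It had 65.4 and 75.1 CPM in sgTet, 58.6 and 53.6 in sgNT, 65.4 and 71.9 in crTet, and 56.3 and 64.1 in crNT. The activators overlapped throughout, and the test of their difference was not passed (-0.03 ± 0.07, adjusted p = 0.818). The number of own KRT8 reads per own KRT18 read was 0.861 and 0.754 in sgTet, 1.02 and 1.12 in sgNT, 1.43 and 1.25 in crTet, and 1.64 and 1.64 in crNT, with no overlap between the activators. The log2 ratio differed by -0.67 between dCasMINI-VPR and dCas12a-VPR, at the smallest two-sided exact permutation p that 4 libraries against 4 allow (0.0286), and 0.114 adjusted over the 4 ratios tested, which misses the threshold. Those ratios were chosen after their values were seen.

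**Figure D3:**
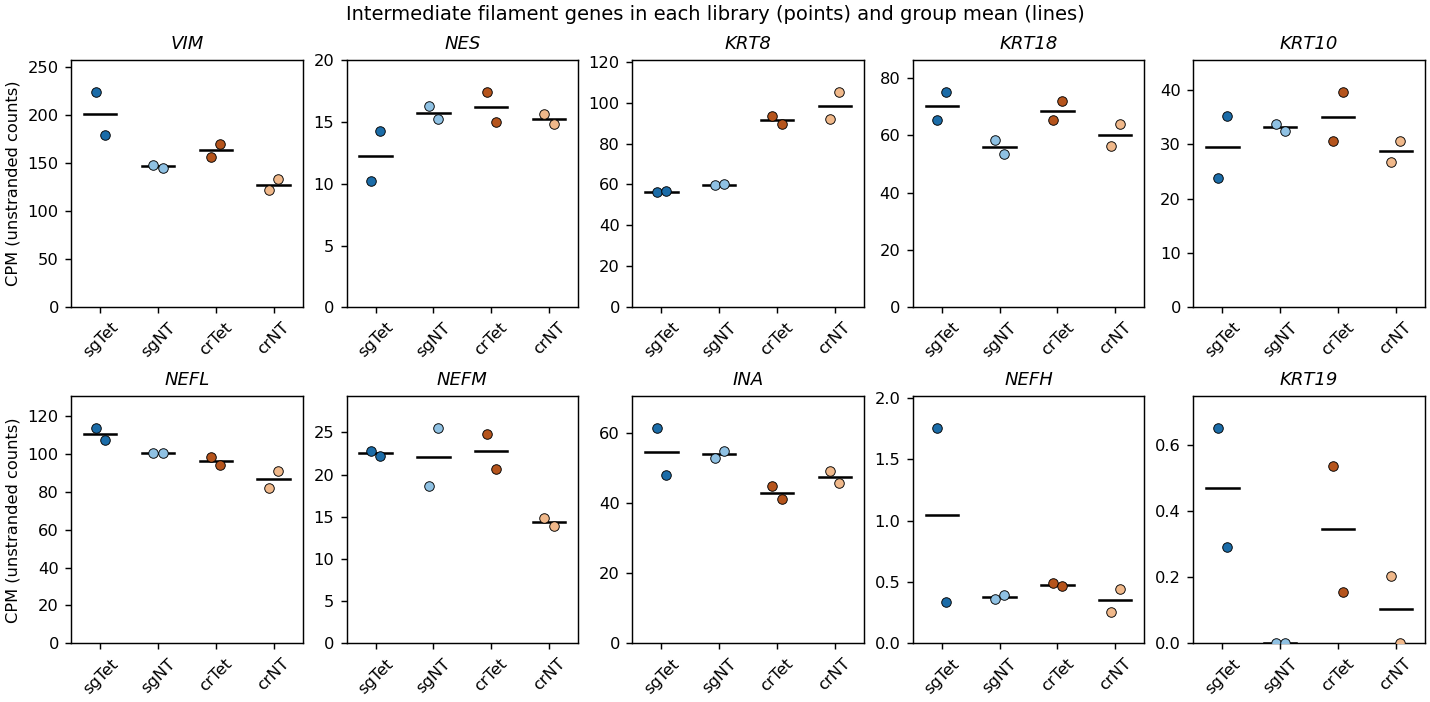
CPM from unstranded counts for the 10 members in each library (points) with the group mean (line), groups in the order sgTet, sgNT, crTet, crNT. KRT8 lies between 56.3 and 60.1 CPM in the 4 dCasMINI-VPR libraries and between 89.8 and 105 in the 4 dCas12a-VPR libraries, and VIM is higher with each Tet guide than with its NT guide.

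VIM, NEFL and INA also differed between the activators, in the other direction. VIM averaged 174 ± 36.5 CPM with dCasMINI-VPR and 145 ± 21.6 with dCas12a-VPR (n = 4 each, 0.25 ± 0.06, edgeR adjusted p = 0.00619), and these ranges overlapped. NEFL had 113 and 107 CPM in sgTet and 101 and 100.2 in sgNT, against 98.1 and 94.0 in crTet and 81.9 and 91.2 in crNT. All dCasMINI-VPR libraries were above all dCas12a-VPR libraries for NEFL, by 0.21 ± 0.06 on the log2 scale (adjusted p = 0.02). INA had 61.4 and 48.1 CPM in sgTet and 53.0 and 55.0 in sgNT, against 44.98 and 41.2 in crTet and 49.3 and 45.9 in crNT. The groups met only between the lower sgTet and the higher crNT library, and INA was higher with dCasMINI-VPR by 0.26 ± 0.08 (adjusted p = 0.0232). In all, 4 of the 9 members tested were called in this comparison, 3 higher and 1 lower, while 10.0% of all 16606 genes were called, 4.83% higher and 5.20% lower (802 and 863 genes, or 625 and 969 when scaled by library size alone). The median log2 fold change of the 9 members was -0.02, against 0.0020 over all genes.
The calls of VIM, NEFL and INA were lost when single libraries were left out. VIM lost its call without crNT replicate 1 (adjusted p = 0.0712), and NEFL without sgNT replicate 1 (0.0784) or 2 (0.0838), crNT replicate 1 (0.204) or crTet replicate 2 (0.0858). INA lost it without sgNT replicate 1 (0.0551) or 2 (0.104), sgTet replicate 1 (0.129), crNT replicate 1 (0.0588) or 2 (0.13), or crTet replicate 2 (0.104). NEFM missed the threshold (0.30 ± 0.10, adjusted p = 0.061) and passed it without sgNT replicate 1 (0.0179), sgTet replicate 2 (0.0485) or crTet replicate 1 (0.0424).

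Vimentin was higher with both Tet guides in its own reads. VIM had 224 and 179 CPM in sgTet against 148 and 145 in sgNT, and 157 and 169 in crTet against 122 and 133 in crNT. Both Tet libraries of each activator lay above both NT libraries. The rise was 0.46 ± 0.09 on the log2 scale in sgTet (201.5 ± 31.2 CPM, against 146 ± 1.79 in sgNT, edgeR adjusted p = 0.00281) and 0.35 ± 0.09 in crTet (163 ± 8.94, against 128 ± 7.96 in crNT, adjusted p = 0.0112). The guide effects with the activators differed by 0.11 ± 0.12, which was not called (adjusted p = 0.721). VIM was the only member called in sgTet, 1 of 9, where 0.795% of all genes were called, 0.470% higher and 0.325% lower (78 and 54 genes, or 68 and 80 when scaled by library size alone).
The shared reads of VIM, the larger part, lay closer between the guides. They stood at 478 ± 3.88 CPM in sgTet and 451 ± 12.4 in sgNT, and at 439 ± 6.26 in crTet and 394 ± 20.0 in crNT. With shared reads kept, the rise was 0.21 in sgTet (adjusted p = 0.199) and 0.22 in crTet (0.0578), and neither passed. The own share of VIM reads was 31.7% and 27.4% in sgTet and 26.5% and 27.6% in crTet, above the 25.0% and 24.01% of sgNT and the 24.3% and 24.6% of crNT. The call in sgTet was also lost without sgNT replicate 1 (0.0656) or 2 (0.1) or sgTet replicate 1 (0.0733), and that in crTet without crNT replicate 1 (0.288) or crTet replicate 2 (0.136). The mitochondrial share of reads given above was also higher in each Tet library than in the NT libraries of its activator, and its part in the result was not tested.

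**Figure D4:**
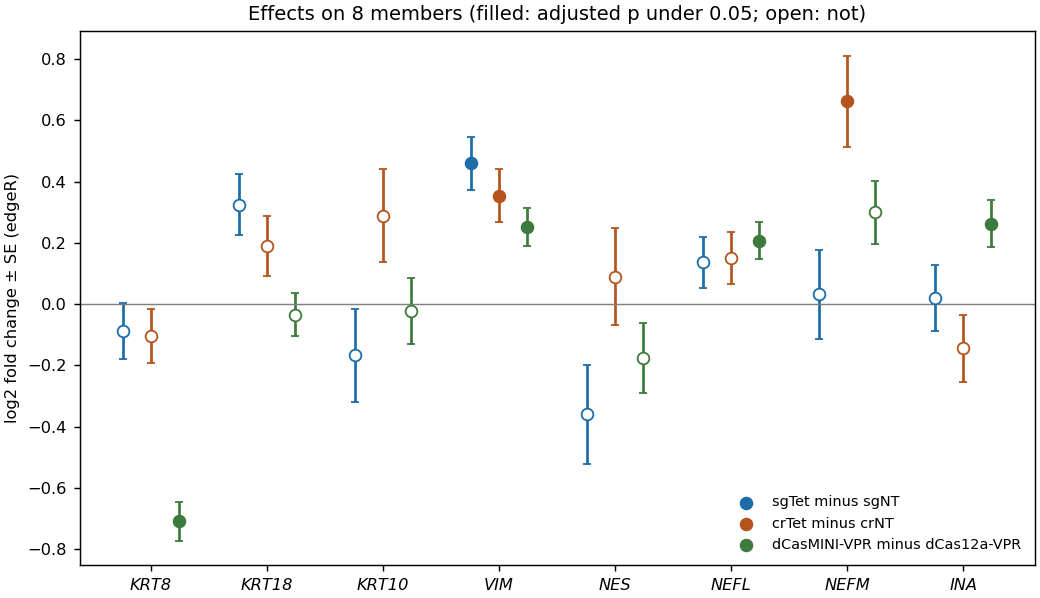
Log2 fold change ± SE from edgeR for 8 members in 3 comparisons, with filled points for an adjusted p under 0.05 and open points for others. KRT19, with wide errors, and NEFH, not tested, are left out; KRT8 falls at -0.71 for dCasMINI-VPR minus dCas12a-VPR and VIM lies above 0 in all 3.

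Of the neurofilament chains, the medium one rose with crTet. NEFM had 24.8 and 20.7 CPM in crTet against 14.8 and 13.9 in crNT, while sgTet had 22.8 and 22.2 and sgNT 18.6 and 25.5. The crNT libraries were the lowest of the 8, and the other 6 overlapped. The rise was 0.66 ± 0.15 in crTet (22.7 ± 2.89 CPM, against 14.4 ± 0.616 in crNT, edgeR adjusted p = 0.00527), against 0.03 ± 0.14 in sgTet (adjusted p = 0.954), and the test of the difference was not passed (-0.63 ± 0.21, adjusted p = 0.114). NEFM and VIM were the members called in crTet, 2 of 9, where 6.32% of all genes were called, 3.56% higher and 2.75% lower (592 and 457 genes, or 432 and 600 when scaled by library size alone). The NEFM call was lost without crNT replicate 1 (0.0719) or 2 (0.083) or crTet replicate 1 (0.1). The crNT libraries also had the largest unmapped share, and its part in the result was not tested. NEFL, the chain on which the others assemble, was not called with either guide (0.14 ± 0.08, adjusted p = 0.519, in sgTet and 0.15 ± 0.08, adjusted p = 0.328, in crTet). INA was not called either (0.02 ± 0.11, adjusted p = 0.964, and -0.14 ± 0.11, adjusted p = 0.508).
NEFH, the chain of mature large axons, had 35 and 7 reads in sgTet, 7 and 7 in sgNT, 10 and 9 in crTet, and 5 and 9 in crNT. Only sgTet replicate 1 stood out, and its partner library did not share the rise.

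For nestin and keratin 10 the sgTet libraries lay apart. NES had 10.3 and 14.3 CPM in sgTet, 16.3 and 15.3 in sgNT, 17.4 and 15.0 in crTet, and 15.7 and 14.8 in crNT. KRT10 had 23.9 and 35.1 CPM in sgTet, 33.8 and 32.5 in sgNT, 30.6 and 39.6 in crTet, and 26.7 and 30.7 in crNT. For NES both sgTet libraries were below the other 6, replicate 2 by little. For KRT10 sgTet replicate 1 was the lowest of the 8 and replicate 2 the second highest. Neither passed the sgTet test (NES -0.36 ± 0.16, adjusted p = 0.355, and KRT10 -0.17 ± 0.15, adjusted p = 0.7). Both passed it without sgTet replicate 2 (-0.62 and -0.47), a fit that rests on sgTet replicate 1 alone. Of all libraries left out, that one also gave the most genes called in sgTet. KRT18 passed the sgTet test without sgTet replicate 1 (0.42), a fit on replicate 2 alone. With all 8 libraries KRT18 gave 0.32 ± 0.10 (adjusted p = 0.131).
KRT19 had 13 and 6 reads in sgTet, 0 and 0 in sgNT, 11 and 3 in crTet, and 4 and 0 in crNT. Both sgTet libraries were above both sgNT libraries, the crTet and crNT libraries overlapped, and 0 reads allow up to 0.154 and 0.172 CPM in the sgNT libraries. KRT19 passed the filter through its highest libraries and was not called (adjusted p = 0.148 in sgTet and 0.461 in crTet). Without sgTet replicate 2 it reached the threshold in sgTet, in the same fit on sgTet replicate 1 alone.
In the test of a difference between the guide effects 0 members were called by edgeR and 0 by DESeq2, where edgeR called 1.35% of all genes, 0.506% higher and 0.843% lower. At an unadjusted p under 0.05 there were 2, NEFM (0.00456) and KRT10 (0.0464). Without sgTet replicate 2, KRT10 (-0.76) and NES (-0.71) passed this test, again with sgTet replicate 1 alone in its group. Of all libraries left out, that one also gave the most genes called for the difference. The median effect over the 9 members was 0.03 in sgTet and 0.19 in crTet, against 0.00028 and 0.0080 over all genes.

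By Pearson correlation of log2 CPM over the 8 libraries, which share 4 group means and so give a description only, the genes most like KRT8 among 12509 were UBE2L6 (0.990), LGALS3BP (0.985) and IFIT5 (0.984). Those most like VIM were H3P6 (0.988), SNW1 (0.986) and MT-ATP6 (0.986). For NEFL the first was CHRAC1 (0.982), for NEFM PCNT (0.984) and for INA EPC2 (0.981). For KRT18 it was FUT10 (0.950), for NES KCNAB2 (0.968), for KRT10 TMEM160 (0.979) and for KRT19 ZNF620 (0.962). Among the members themselves KRT8 and NEFL ran most opposite (-0.787).

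The rest of the keratin family was almost silent. Of 51 other keratin genes, 27 had no read in any library, 44 had at most 24 reads over all 8, and 3 averaged at least 1 CPM. KRT7, the other type II keratin of simple epithelia, had 4 reads in all and KRT20 had 0. KRT17, an acidic keratin of basal and stressed epithelia, had 2.10 and 3.29 CPM in sgTet and 3.74 and 3.97 in sgNT, against 4.001 and 6.25 in crTet and 6.66 and 7.09 in crNT. It was lower with dCasMINI-VPR by -0.88 ± 0.19 (edgeR adjusted p = 0.00245), the only one of the 4 tested to be called there, and it was called under each alternative run. None of the 4 was called with either guide. Of all genes 10.0% were called between the activators (5.20% lower), 0.795% in sgTet and 6.32% in crTet.

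Among the other filament proteins, the nuclear lamins were abundant: LMNB2 averaged 363 CPM over the 8 libraries, LMNB1 249 and LMNA 160 CPM. Per kilobase of merged exons LMNB1 (68.5) and LMNB2 (66.8) lay close, and LMNA stood at 22.8. LMNB1, a lamin of the nuclear envelope in all cells, had 273 and 269 CPM in sgTet and 267 and 275 in sgNT, against 252 and 240 in crTet and 202 and 216 in crNT. It was higher with dCasMINI-VPR (0.26 ± 0.05, adjusted p = 5.55e-04), under each alternative run, and rose in crTet (0.24 ± 0.07, adjusted p = 0.0383), a call lost without any 1 of the crTet, crNT or sgNT libraries (adjusted p between 0.0721 and 0.507), with library size alone (0.0717), with no filter (0.0516) and with forward-strand (0.0615) or reverse-strand counts (0.0533). DES, the muscle filament desmin, was lower with dCasMINI-VPR (-1.14 ± 0.31, adjusted p = 0.0134), at 0.742 CPM in sgTet and 1.57 in sgNT, against 2.17 in crTet and 2.63 in crNT. That call was lost with shared reads kept (-0.65, adjusted p = 0.101) and without sgNT replicate 1 (0.053), crNT replicate 2 (0.0631) or crTet replicate 2 (0.0738). GFAP and SYNM averaged 3.45 and 4.33 CPM and BFSP2 had no read. Of these 8 tested genes 0 were called in sgTet, where 0.795% of all genes were. In crTet 1 rose (3.56% of all genes), and 1 was higher and 1 lower with dCasMINI-VPR (4.83% and 5.20% of all genes).

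Some of the linkers that tie filaments to other structures were higher in crTet than in crNT. Of 16 tested genes of linkers and desmosomes 5 rose, none fell and 11 were not called there, where 6.32% of all genes were called and 3.56% were higher. Their median was 0.25, against 0.0080 over all genes. In sgTet 0 of the 16 were called, where 0.795% of all genes were (median -0.02, against 0.00028 over all genes). Of the desmosome genes not called in crTet, JUP (plakoglobin) gave 0.04, DSC2 -0.01, DSG2 -0.13, PKP2 -0.16 and DSC3 -0.18. PLEC, plectin, which crosslinks filaments to hemidesmosomes and actin, had 131 and 115 CPM in crTet against 80.5 and 81.9 in crNT, and 86.7 and 104 in sgTet against 115 and 124 in sgNT. The rise in crTet was 0.59 ± 0.09 (edgeR adjusted p = 9.15e-05) and was called under each alternative run, while sgTet gave -0.32 ± 0.09 (adjusted p = 0.0867). MACF1, a spectraplakin that joins actin and microtubules, had 66.4 and 47.8 CPM in crTet against 31.3 and 34.1 in crNT (0.81 ± 0.12, adjusted p = 1.87e-04). EPPK1, epiplakin, which binds keratin bundles, had 7.66 and 6.61 CPM in crTet against 3.23 and 3.30 in crNT (1.13 ± 0.24, adjusted p = 0.00396). DST, dystonin, rose by 0.54 ± 0.14 (adjusted p = 0.018) and DSP, desmoplakin, the fifth called gene, by 0.32 ± 0.09 (adjusted p = 0.0259). DST also differed between the activators, higher with dCasMINI-VPR by 0.50 ± 0.10 (adjusted p = 8.86e-04). For each of these 5 the crNT libraries were the lowest of the 8, as for NEFM. In sgNT PLEC averaged 119, MACF1 45.7, EPPK1 6.65, DST 40.2 and DSP 127 CPM. In crTet the averages were 123, 57.1, 7.13, 34.1 and 139 CPM, in the same order. The crNT libraries also had the largest unmapped share, and its part in these rises was not tested. The call of the EPPK1 rise was lost with forward-strand counts (1.05, adjusted p = 0.0655). It was also lost without crNT replicate 1 (1.11) or crTet replicate 1 (1.015). That of DST was lost without crNT replicate 1 (0.49) or 2 (0.60) or crTet replicate 1 (0.23). The outcome of the alternatives was not listed for DSP, so how far its call holds is not given. The desmosomal cadherin DSG2 averaged 422 CPM and JUP 142 CPM.

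**Figure D5:**
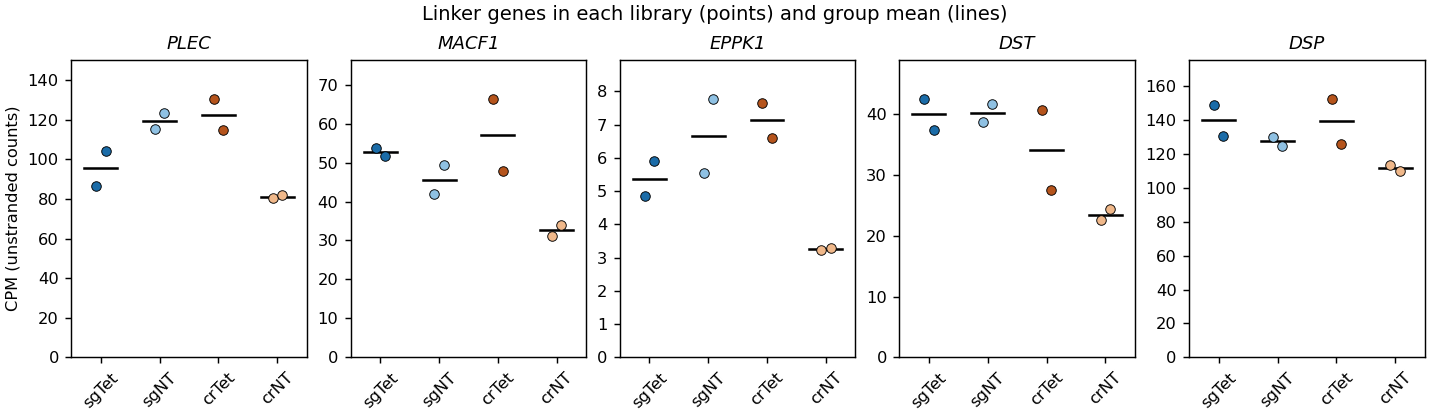
CPM from unstranded counts of 5 linker genes in each library (points) with the group mean (line), groups in the order sgTet, sgNT, crTet, crNT. PLEC reaches 131 and 115 CPM in crTet against 80.5 and 81.9 in crNT, and the crNT libraries are lowest in each panel.

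Markers of several lineages were measured together. Of 25 epithelial markers 16 averaged at least 1 CPM, of 27 neuronal markers 13, of 10 neural progenitor markers 5, of 22 mesenchymal markers 14 and of 14 kidney lineage markers 8. Among epithelial markers the tight junction protein TJP1 averaged 44.9 CPM, the polarity gene LLGL2 39.9, the protease inhibitor SPINT2 38.9 and KLF5 38.0 CPM, but the adhesion genes CDH1 and EPCAM stood at 12.2 and 3.72 CPM, and CLDN3, GRHL2 and OVOL1 had at most 24 reads over all libraries. Among neuronal markers UCHL1, a ubiquitin hydrolase, averaged 288 CPM, POU4F1 59.1, ENO2 52.9 and NCAM1 29.4 CPM. TUBB3 and MAP2, the usual markers beside neurofilaments, stood at 0.896 and 1.57 CPM, DCX and ELAVL3 had 6 reads each, and ELAVL4, PHOX2A and TH had none. By CPM, NR2F1 and MSI1 led the progenitor list, at 72.6 and 54.9, and CDH2 and FN1 the mesenchymal list, at 87.3 and 64.9. The CPM of these markers are not scaled by length, so they do not rank the genes. Per kilobase of merged exons MSI1 (17.8) lay above NR2F1 (16.8), and FN1 stood at 3.75 against 17.6 for CDH2. Of the kidney list, PAX8 had 10 reads over all libraries. Summed levels were 235 and 233 CPM in sgTet, 249 and 235 in sgNT, 245 and 245 in crTet, and 255 and 248 in crNT for the epithelial list. For the neuronal list they were 498 and 518 in sgTet, 530 and 542 in sgNT, 520 and 553 in crTet, and 544 and 571 in crNT. Of 11 haematopoietic markers 3 averaged at least 1 CPM, and of 10 endothelial markers 2. The haematopoietic markers PTPRC and HBB had no read, nor did the endothelial markers TIE1 and EMCN, though EGFL7 averaged 45.3 CPM.
Between the activators 10.0% of all genes were called, 4.83% higher and 5.20% lower with dCasMINI-VPR, against which the following counts stand. With dCasMINI-VPR 3 of 20 tested epithelial markers were lower and none higher: the prostasin gene PRSS8 (-2.24, adjusted p = 6.83e-04), SPINT2 (-0.28, adjusted p = 0.0171) and CDH1 (-0.39, adjusted p = 0.0271). PRSS8 was scarce, at a mean of 0.994 CPM. It had 6 and 5 reads in sgTet and 7 and 8 in sgNT, against 25 and 23 in crTet and 52 and 31 in crNT. The neuronal enolase ENO2 was lower, at 36.2 and 39.5 CPM in sgTet and 46.3 and 44.1 in sgNT, against 55.1 and 56.8 in crTet and 74.9 and 70.3 in crNT (-0.62 ± 0.07, adjusted p = 5.38e-08), as were MAPT (-0.42, adjusted p = 0.0131) and GAP43 (-0.72, adjusted p = 0.017), while RBFOX3 was higher (0.71, adjusted p = 0.0497). That is 3 of 17 neuronal markers lower and 1 higher, where NEFL and INA were higher. Of the mesenchymal list, with VIM higher, 3 of 18 were lower (FN1 by -0.35, ACTA2 by -0.47, LUM by -1.57) and 1 higher (SNAI2, 0.38). Of the other lists LCP1 and EGFL7 were lower (-0.89 and -0.33), NR2F1 was higher (0.51, adjusted p = 5.92e-07), and 0 of 9 kidney markers were called. The calls of PRSS8, ENO2 and NR2F1 held under each alternative run; those of SPINT2, CDH1, MAPT, GAP43, ACTA2, SNAI2, LUM, LCP1 and EGFL7 were lost without at least 1 library, and that of FN1 with forward-strand counts (0.11). The RBFOX3 call was lost without any 1 of the 8 libraries (0.061 to 0.219), with DESeq2 (0.0606), library size alone (0.0583), no filter (0.085) and forward-strand counts (0.399).
With the guides, ENO2 fell in crTet (-0.37 ± 0.10, adjusted p = 0.0146), a call lost without any 1 crTet or crNT library (0.07 to 0.294), and NR2F1 rose there (0.64 ± 0.09, adjusted p = 4.45e-05). No other gene of the 7 marker lists was called in either guide comparison. These calls were 1 of 17 tested neuronal and 1 of 6 tested progenitor markers, where 6.32% of all genes were called in crTet. In sgTet 0.795% of all genes were called.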

How the data were processed

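Gene expression was measured by poly(A)-selected RNA sequencing in 8 libraries of 4 groups. The deposited files hold raw counts of reads per gene, 1 file per library, which the authors made by aligning to hg38 with STAR, per the submitters' processing notes; the version and annotation are not given in the sources used here. Each file has 60652 gene rows, 3 count columns (unstranded, forward and reverse strand) and 4 totals that name no gene. The totals, unmapped (8.32% to 14.4% of reads), multimapping, no feature and ambiguous (10.4% to 11.2%), stayed out of library sizes and tests. Symbols came from a gene name table (42024 rows with a symbol other than the ID), and positions and exon lengths from GENCODE 29 on hg38, matched by ID without version (58405 rows), so exon models may differ from those counted.

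The unstranded counts of all 8 libraries were fitted in 1 model with a mean per group (edgeR 4.0.16, quasi-likelihood, robust, R 4.3.3; TMM, filterByExpr by group), which tested 16606 genes with a common biological coefficient of variation of 8.04% and 4 residual degrees of freedom. Tests were two-sided, adjusted by Benjamini-Hochberg over all genes and called at 0.05. CPM use TMM-adjusted library sizes and are given as mean ± SD (n = 2 unless stated). Each SE was taken as the absolute log2 fold change over the root of its F statistic. The fit was tested on simulated data. Named genes were all members, the reporter, up to 4 called genes per list and comparison, up to 4 of the most abundant of each list, and the 3 genes most like each member; KRT7, KRT20, EPCAM, TUBB3, MAP2, GFAP, the fifth called linker DSP in its comparison, and the genes named as near or at 0 reads were picked after their values were seen. Alternatives were DESeq2 1.42.0, its size factors, library size alone, no filter, single strand columns, a replicate block, fits of 1 activator and each library left out; the summed strand columns were chosen after seeing the data. The members and lists were chosen with earlier results of these data known. The replicate numbers of the labels give no pairing.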

Additional observations from a re-analysis of the deposited data

Results flagged for a closer look

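PLEC, EPPK1, NR2F1 and LMNB2 had guide effects that differed between the activators by the test of that difference (sgTet minus sgNT, less crTet minus crNT; edgeR adjusted p over all genes). They were 2 of 16 tested linkers, 1 of 8 other filament genes and 1 of 6 progenitor markers, and the other lists gave no call. Of all genes 1.35% were called in this test, 0.843% lower. For PLEC the difference was -0.92 (adjusted p = 6.46e-05), and this call held under each alternative run. For EPPK1 it was -1.43 (adjusted p = 0.0269), a call lost with forward-strand counts (-1.25, adjusted p = 0.192). That call was also lost without sgNT replicate 2 (-1.17), sgTet replicate 1 (-1.29), either crNT library (-1.42 and -1.45) or crTet replicate 1 (-1.32). For NR2F1 the difference was -0.50 (adjusted p = 0.0402), a call lost with forward-strand counts (-0.40, adjusted p = 0.169). It was also lost without either sgNT, crNT or crTet library (-0.56 to -0.43). For LMNB2 it was -0.41 (adjusted p = 0.0468), lost without any 1 library except sgTet replicate 2 (0.0771 to 0.332) and, among other settings, with DESeq2 size factors (0.05). In crTet each of the 4 was above crNT, and the crNT libraries also had the largest unmapped share, whose part was not tested.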

How the results depend on the processing

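Across the members 514 values kept their direction and side of the threshold, 27 lost a call, 9 gained one and 28 changed sign, none of the last 28 called. KRT8 between the activators and the EGFP rises with both Tet guides kept their calls under each alternative. With forward-strand, reverse-strand or summed strand columns, 0 members were called in sgTet and 1 in crTet. With forward-strand counts 2 were called between the activators (VIM 0.0566 and NEFL 0.248 were lost), and 661 genes were called in crTet and 106 for the difference of guide effects. The levels of the members summed to 516.1 CPM (mean of 8 libraries), or 1091 CPM with both strand columns. The larger sum counts the reads shared by KRT8 and KRT18 for both genes, so it overstates the level of the members. Without the filter 276 genes were called in sgTet and 450 for the difference. From the 4 libraries of each activator alone 84 genes were called in sgTet and 1785 in crTet. Leaving out each library in turn gave 50 to 1475 genes and 0 to 4 members in sgTet, 135 to 1965 genes and 0 to 2 members in crTet, 28 to 1835 genes and 0 to 2 members for the difference, and 839 to 2403 genes and 1 to 5 members between the activators. The lowest counts fell without sgNT replicate 2 or crNT replicate 1 and the highest without sgTet replicate 2; the cause was not tested.

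Signs changed for differences of guide effects with forward-strand, reverse-strand and summed columns in KRT8 (-0.034, -0.069 and -0.048) and VIM (-0.035, -0.0083 and -0.018). They changed with forward-strand counts in KRT18 (-0.057), NEFL (0.054) and EGFP (0.14). With library size alone they changed in sgTet for NEFM (-0.0084) and INA (-0.021). With libraries left out, differences of guide effects ranged between -0.087 and 0.11 for KRT8, -0.058 and 0.26 for VIM, -0.10 and 0.058 for NEFL, -0.021 and 0.33 for INA, and -0.29 and 0.16 for EGFP. Activator differences ranged between -0.089 and 0.014 for KRT18, -2.315 and 0.21 for KRT19 (1 library at 0 reads then made a group), and -0.18 and 0.10 for KRT10. Guide effects ranged between -0.47 and 0.086 for KRT10, -0.18 and 0.27 for NEFM and -0.17 and 0.19 for INA in sgTet, and between -0.023 and 0.19 for NES in crTet. The cause was not tested.

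Replicate numbers did not pair the libraries (correlation of deviations 0.028 for sgTet with sgNT and 0.049 for crTet with crNT). With a replicate block 167, 1201, 347 and 1798 genes were called in sgTet, crTet, the difference and between the activators, against 132, 1049, 224 and 1665 without it, and 1, 2, 0 and 4 members in both. RBFOX3 was not called between the activators with the block (0.052). Where 1 library is left out, the lone library is assumed to vary like the others. At 35 reads or fewer per library KRT19 and NEFH give no usable fold change.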
